A study of Mus musculus with 9 samples.

Results

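Tumour-infiltrating CD8+ T cells with high surface α2,6-linked sialoglycan were compared by the presence of PD-1. The comparison set 3 libraries of Sia2,6hi PD-1+ cells against 3 libraries of Sia2,6hi PD-1- cells, 6 of the 9 libraries of the series, in all genes that passed a filter on low counts, 14583 of the 56860 in the table. All 6 libraries were polyadenylated RNA of CD8+ T cells sorted by flow cytometry from melanomas of untreated wild-type mice. The tumour is B16-OVA by the sample labels, a B16 melanoma line carrying ovalbumin, and B16F10 by the series description. The sources used here give no antibodies, gates, mouse age, cell numbers per sort or number of tumours per library. No label says that replicates came from separate animals, so p-values rest on how far these libraries differ among themselves, and that may be technical spread.

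PD-1, the product of Pdcd1, is an inhibitory receptor that T cells place on their surface after antigen stimulation and keep there under chronic stimulation, as in tumours. CD8 T cells held in this state keep PD-1 together with other inhibitory receptors and the transcription factor TOX and lose functions stepwise, a program called exhaustion, while cells that have not met antigen hold homing receptors and the interleukin-7 receptor. α2,6-linked sialic acid on N-glycans is added mainly by ST6GAL1, and both sorted populations were high for it.

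Reads in genes numbered 9714020 to 13841619 per PD-1- library and 12337273 to 13702189 per PD-1+ library. The first principal component of log CPM held 57.6% of the variance and separated the groups. Replicates were less alike among the PD-1- libraries, where log CPM correlated at 0.898 to 0.905 across genes and the biological coefficient of variation was 0.445, than among the PD-1+ libraries, with 0.941 to 0.968 and 0.274. Reads of mitochondrially encoded genes made up 6.98% to 10.3% of PD-1- libraries and 2.25% to 3.56% of PD-1+ libraries. In the PD-1- libraries 114, 124 and 193 genes had 0 reads in one library while each of the others of that group had at least 20, against 3, 12 and 16 genes in PD-1+ libraries, so a 0 in 1 PD-1- library often stood beside reads in the others.

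The sorted protein was checked first at the RNA level. Pdcd1 (chromosome 1, 93966027 to 93980278, minus strand, in the deposited table's own coordinates) was at 77.4, 36.1 and 51.7 CPM (counts scaled to library size, with TMM factors) in PD-1- replicates 1, 2 and 3 and at 892.8, 885.6 and 922.6 CPM in PD-1+ replicates 1, 2 and 3. The groups did not overlap, and every PD-1+ library was above every PD-1- library. Because cells were sorted on PD-1, this difference checks the labels and is not a finding. St6gal1, whose product makes the glycan that both groups were sorted high for, was at 103.3, 105.4 and 87.8 CPM in PD-1- and at 55.8, 65.1 and 70.9 CPM in PD-1+ libraries. It was lower in PD-1+ cells by library-size scaling (log2 fold change -0.63, SE 0.17, edgeR quasi-likelihood test with Benjamini-Hochberg adjusted p = 0.0136). That call ended when PD-1- replicate 1 or 2 or PD-1+ replicate 1 was left out, with an adjusted p of 0.0548, 0.0543 and 0.109.

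Transcripts that define T cells differed as a block. The 10 core transcripts (the CD3 and zeta chains Cd3d, Cd3e, Cd3g and Cd247, the receptor constant regions Trac, Trbc1 and Trbc2, the receptor kinase Lck and the co-receptor chains Cd8a and Cd8b1) summed to 1674, 1744 and 1688 CPM, before TMM scaling, in PD-1- libraries and to 6101, 6783 and 5815 in PD-1+ libraries. The means were 1702 (SD 37.2, n = 3) and 6233 (SD 497, n = 3), a ratio of 3.66. Cd3e, a signalling chain of the receptor complex, was at 67.3, 59.9 and 56.9 CPM in PD-1- and at 358.8, 385.7 and 338.1 CPM in PD-1+ libraries. Cd8b1, the co-receptor chain that is largely restricted to T cells, was at 251.0, 273.7 and 241.8 CPM in PD-1- and at 747.0, 897.1 and 658.7 CPM in PD-1+ libraries. None of the 10 genes overlapped between the groups, and all 10 were called higher in PD-1+ cells at an adjusted p below 0.05, from log2 1.59 (SE 0.17) for Cd8b1 to 2.55 (SE 0.16) for Cd3e. By the same measures 48.5% of all 14583 tested genes did not overlap, in either direction, and 16.3% were called higher. In sorted bulk RNA, fewer T cells and less RNA of the core genes per T cell cannot be told apart.

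**Figure D1:**
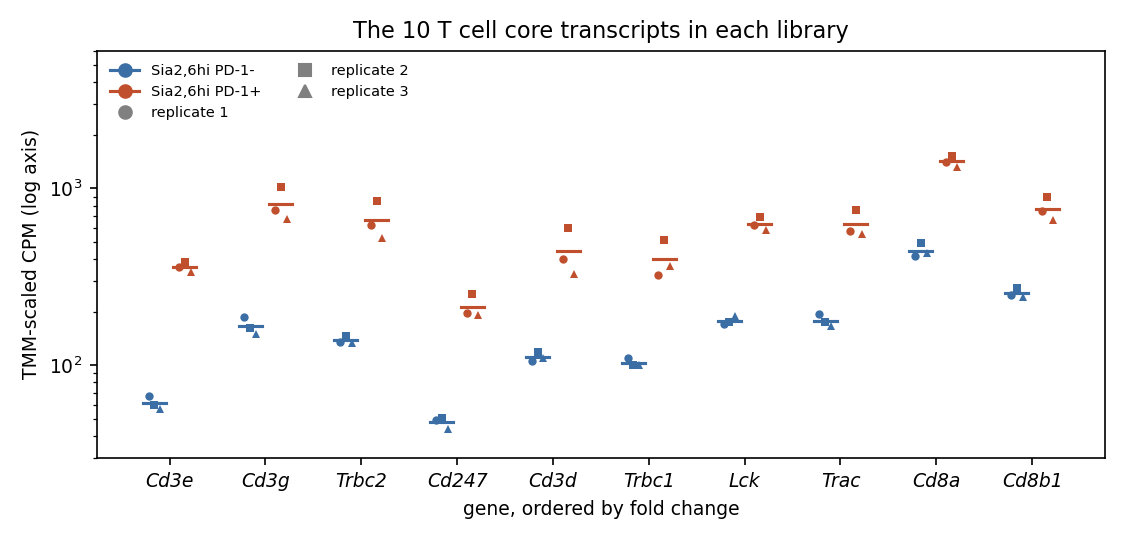
TMM-scaled CPM (log axis) of the 10 T cell core transcripts in each library, with replicates as symbols and the group mean as a bar. All 3 PD-1+ libraries sit above all 3 PD-1- libraries for each gene, with Cd8b1 the least (log2 1.59) and Cd3e the most (2.55) different of the 10.

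For this reason genes were tested on 2 scales, and values are by library-size scaling where no scale is named. Library-size scaling asks what share of all RNA a gene takes. The second scale divides by the summed reads of the 10 core transcripts and asks how many reads a gene has per T cell core transcript. This lowers log2 fold changes by about 1.90, a factor of 3.73, in genes with ample reads in both groups. With few or no reads in a group the fitted shift can differ, since such values depend on the prior count. Crabp2, without reads in PD-1- libraries, went from 10.9 to 10.2. A gene that changed exactly as the core did has 0 on the second scale, and all genes called lower by library-size scaling were also called lower there. The core genes did not move by 1 factor, since their own values on the second scale ran from -0.32 for Cd8b1 to 0.66 for Cd3e. Whether a T cell of either group holds the same amount of core transcripts was not tested.

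Markers of several other cell types were higher in the PD-1- libraries. Siglech, a lectin of plasmacytoid dendritic cells, was at 609.7, 1266 and 797.5 CPM in PD-1- libraries and at 11.6, 20.7 and 13.0 CPM in PD-1+ libraries, without overlap. It fell by 5.88 on the log2 scale (SE 0.33, adjusted p = 6.02e-07). Plasmacytoid dendritic cells are the professional makers of type I interferon, and of their 21 markers 20 were called lower in PD-1+ cells and 0 higher (Il3ra was not called), where 17.0% of all 14583 tested genes were called lower by library-size scaling. Their summed level was 5517 to 9657 CPM in PD-1- and 1013 to 1177 CPM in PD-1+ libraries.

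The list of cross-presenting type 1 conventional dendritic cells moved the same way. All 15 of its tested markers were called lower, with sums of 4842 to 5278 CPM in PD-1- and 686.5 to 907.1 CPM in PD-1+ libraries. Clec9a, which senses dead cells, had a log2 fold change of -3.85 and Xcr1, the receptor for XCL1, of -4.16. Of 15 MHC class II and shared dendritic cell genes 14 were called lower, and their sum was 19540 to 22650 CPM against 3071 to 5937 CPM. Melanoma genes were lower for 16 of 16, with sums of 4753 to 9969 CPM against 1065 to 1180 CPM, and Tyrp1, a pigment enzyme of the tumour, had a log2 fold change of -2.97. In the other lists 15 of 20 macrophage and monocyte genes, 10 of 18 genes of mature dendritic cells (3 were higher), 8 of 13 of B and plasma cells, 10 of 12 endothelial genes and 9 of 12 fibroblast genes were called lower. The fibroblast list also held 1 member called higher, Thy1, which T cells express. Of 4 tested neutrophil genes 1 was called higher and 0 lower, and the 1 tested erythroid gene was not called. All tested genes gave 17.0% called lower and 16.3% called higher. The part of these other cell types in the differences described next was not tested.

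**Figure D2:**
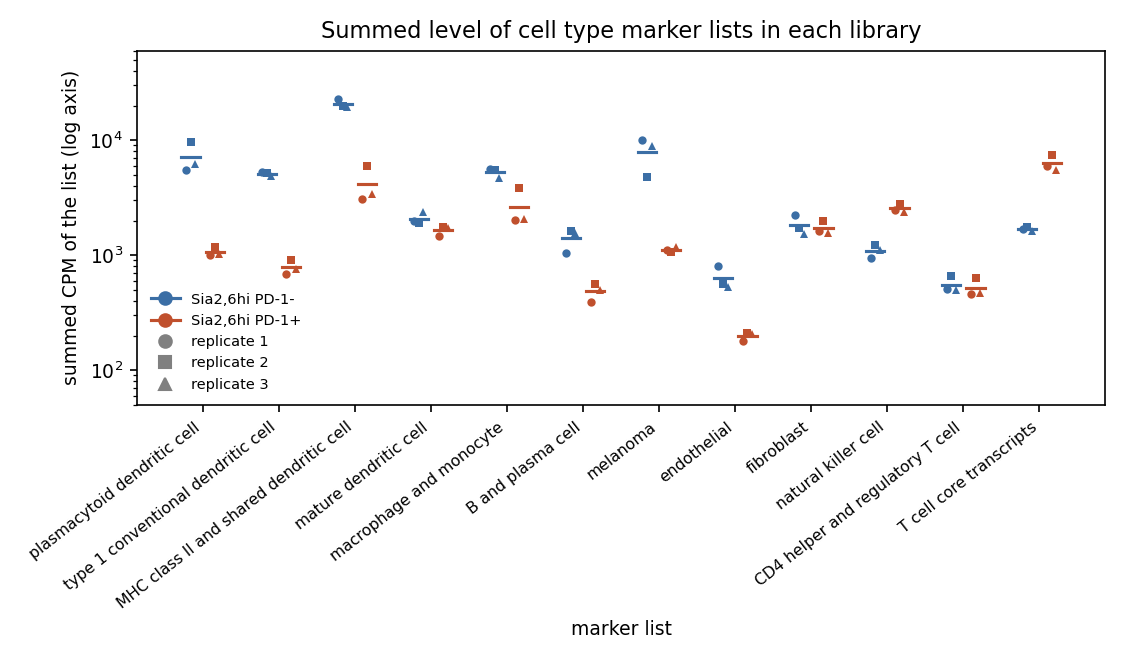
Summed CPM (log axis) of cell type marker lists and of the T cell core transcripts in each library, with replicates as symbols and the group mean as a bar. Sums of plasmacytoid and type 1 dendritic cell, MHC class II and melanoma genes are higher in every PD-1- library than in any PD-1+ library, the fibroblast and the CD4 T cell sums overlap, and the natural killer list and the T cell core run the other way.

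Cd4 and natural killer genes were mixed. Cd4, the helper T cell co-receptor that mouse dendritic cells also transcribe, was at 284.5, 412.8 and 266.0 CPM in PD-1- and at 26.1, 41.4 and 31.8 CPM in PD-1+ libraries, which made it lower by library-size scaling (log2 -3.28, SE 0.23, adjusted p = 1.29e-06). Of the 11 other helper and regulatory T cell genes tested, 6 were called higher and 1 lower. Foxp3, the regulatory T cell factor, was higher by 1.19 by library-size scaling, while its value per core transcript was -0.69 and not called. Among 14 natural killer genes 5 were called higher and 4 lower, and their sum was higher in PD-1+ libraries, at 2395 to 2803 CPM against 947.9 to 1216 CPM in PD-1- libraries. The 5 higher were Nkg7, Eomes, Il2rb, Klre1 and Klri2, which activated CD8 T cells also transcribe. Which cells gave these reads was not tested. Tyrobp, an adaptor of myeloid and natural killer receptors, was at log2 -2.66. By library-size scaling 16.3% of all tested genes were called higher and 17.0% lower.

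Across all genes the calls depended on the scale. By library-size scaling 2383 genes were called higher in PD-1+ cells (16.3% of 14583) and 2476 lower (17.0%), around a median log2 fold change of 0.02. Per core transcript 140 genes were called higher (0.961% of 14573) and 11688 lower (80.2%), around a median of -1.87. All 140 were also higher by library-size scaling, and the 2476 were lower on both scales. Of the 2383 genes higher by library-size scaling, 1541, which are 10.6% of all 14573 genes tested on both scales, were called lower per core transcript and 702, the core genes among them, were not called. The CPM of the groups did not overlap for 7079 tested genes, 48.5%. Counts of list members in the following paragraphs are to be read beside these shares.

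**Figure D3:**
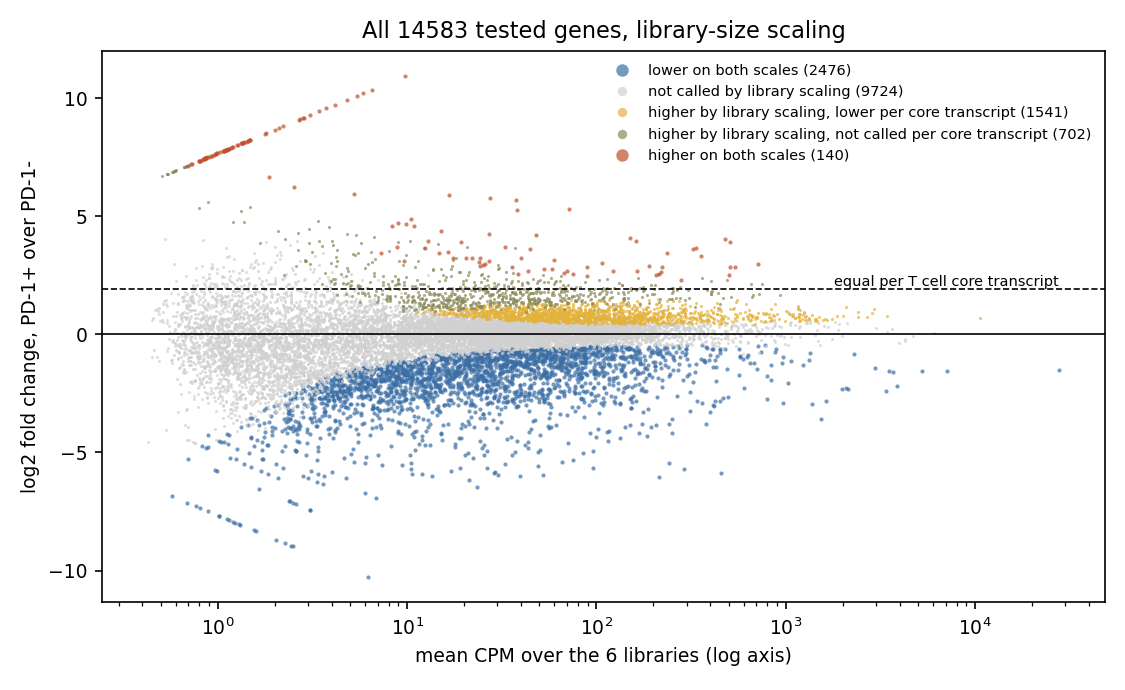
Log2 fold change by library-size scaling against mean CPM (log axis) for the 14583 tested genes, coloured by their calls on both scales. The dashed line at 1.90 marks a gene that is equal per T cell core transcript, the 140 genes higher on both scales lie above it, and the straight diagonal rows of dots are genes at 0 in every library of one group, whose fitted values depend on the prior count.

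The 140 genes higher on both scales were of 2 kinds. For 72 of them no PD-1- library had a read, and 59 of these 72 were under 5 CPM in the PD-1+ libraries. These 72 passed the count filter only through the PD-1+ libraries. Among tested genes 90 were at 0 in every PD-1- library and 20 in every PD-1+ library. Genes with reads numbered 16138 to 16747 per PD-1- library and 17515 to 21376 per PD-1+ library. Set against a floor of 3 reads over the PD-1- group, the 72 were at least 4.63-fold to at least 63.8-fold higher per core transcript. These bounds cover counting error only and do not show that a gene was off in PD-1- cells. The other 68 had reads in PD-1- libraries, with log2 fold changes per core transcript of 0.39 to 5.05 (median 1.37). Among the 140 were 11 antigen receptor segments and 32 unnamed gene models or pseudogenes. The count of 140 became 65, 92 and 73 without PD-1+ replicate 1, 2 and 3 and 68 when genes at 0 in every PD-1- library were left out before the fit, a setting added after the data were seen.

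Inhibitory receptors, which dampen T cell activation, included Tigit and Ctla4 as genes higher on both scales, besides Pdcd1, on whose product cells were sorted. Of 18 tested, 11 were called higher and 3 lower by library-size scaling (median log2 1.21). Per core transcript 3 were higher and 10 lower (median -0.70, against -1.87 over all genes). The counts of higher genes include Pdcd1, which the sort put there. Across all genes 16.3% were higher and 17.0% lower by library-size scaling, and 0.961% higher and 80.2% lower per core transcript. Pdcd1 had 45.9, 20.6 and 31.8 reads per 1000 core reads in PD-1- and 148.4, 118.1 and 166.4 in PD-1+ libraries. Its log2 fold change was 4.03 by library-size scaling (SE 0.26) and 2.14 per core transcript (SE 0.27), which checks the sort and is not a finding. Tigit, which competes for the ligand CD155, was at 40.9, 42.3 and 48.0 CPM in PD-1- against 296.3, 268.3 and 288.3 CPM in PD-1+ libraries, without overlap, and 0.82 higher per core transcript (SE 0.20, adjusted p = 0.00305). Ctla4, whose product competes with CD28 for its ligands, was at 148.5, 141.5 and 156.6 CPM against 865.9, 839.8 and 840.1 CPM, without overlap, and 0.62 higher per core transcript (SE 0.16, adjusted p = 0.00433).

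Lag3 and Havcr2 changed sign with the scale. Lag3, a receptor for MHC class II, was at 140.0, 227.6 and 145.5 CPM in PD-1- and at 414.1, 520.4 and 320.0 CPM in PD-1+ libraries, log2 1.29 (SE 0.23, adjusted p = 9.74e-04) by library-size scaling and -0.63 (SE 0.19, adjusted p = 0.0116) per core transcript. Havcr2, encoding the receptor TIM-3, was at 85.8, 58.0 and 96.4 CPM against 180.3, 175.7 and 167.9 CPM, with 1.13 (SE 0.19, adjusted p = 7.74e-04) and -0.78 (SE 0.23, adjusted p = 0.00963). The calls per core transcript ended without PD-1- replicate 2 for Lag3 (adjusted p = 0.0582) and without PD-1- replicate 3 for Havcr2 (adjusted p = 0.0551). Dendritic cells also transcribe both genes, and their markers were higher in the PD-1- libraries; their part was not tested. Cd160 (-0.01), Cd5 (0.04) and Cd96 (-0.25) were not called per core transcript. The 3 called lower on both scales were Btla, Cd38 and Lair1, with means of 161.1, 83.5 and 326.5 CPM in PD-1- against 88.4, 45.5 and 23.3 CPM in PD-1+ libraries; Lair1 is also on the plasmacytoid dendritic cell list.

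**Figure D4:**
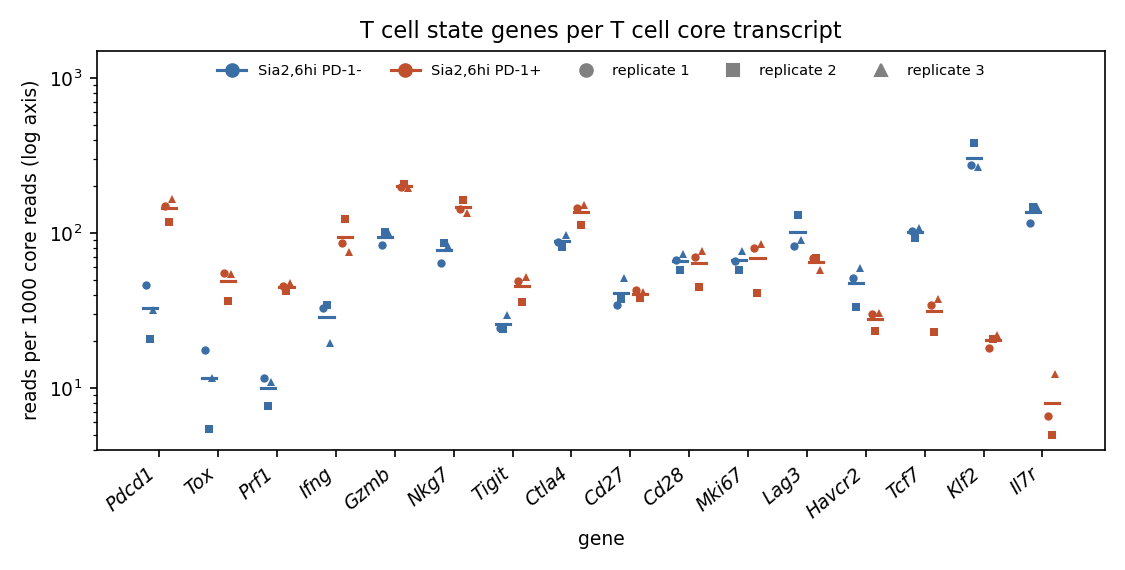
Reads per 1000 T cell core reads (log axis) of 16 T cell state genes in each library, with replicates as symbols and the group mean as a bar. Genes from Pdcd1 to Ctla4 are higher in every PD-1+ library, Cd27, Cd28 and Mki67 overlap, and Lag3 to Il7r are lower in every PD-1+ library.

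Tox, which drives the exhaustion program and lies at 6686353 to 6991557 of chromosome 4 (minus strand), was the transcription factor with the largest difference in its list. It was at 29.8, 9.48 and 18.7 CPM in PD-1- and at 334.1, 271.9 and 301.8 CPM in PD-1+ libraries. The groups did not overlap, and the log2 fold change was 3.97 (SE 0.33, adjusted p = 4.13e-06) by library-size scaling and 2.08 (SE 0.37, adjusted p = 3.43e-04) per core transcript. Of 19 tested effector and exhaustion factors 13 were called higher and 1 lower by library-size scaling (median 1.12), and per core transcript 2 were higher and 11 lower (median -0.76). Tbx21, encoding T-bet, was the other one higher on both, with 0.58 per core transcript (SE 0.20, adjusted p = 0.0179), a call that ended without PD-1- replicate 2 (adjusted p = 0.0553) or PD-1+ replicate 1 (0.0634) or 3 (0.0890). Tox2, Ikzf3, Prdm1, Eomes, Batf and Bhlhe40 were higher by library-size scaling (1.45 to 2.38) and not called per core transcript (-0.41 to 0.51); the Tox2 call ended without PD-1+ replicate 1 (0.0532) or 3 (0.0573). Zeb2, a factor of terminal effector cells that plasmacytoid dendritic cells also use, was lower on both scales, at a mean of 132.7 CPM in PD-1- and 62.5 CPM in PD-1+ libraries. The shares of all genes were 16.3% higher and 17.0% lower by library-size scaling, and 0.961% higher and 80.2% lower per core transcript.

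The list of cytotoxic genes held 8 members higher on both scales, among them Gzmd and Gzme, which passed the count filter only through the PD-1+ libraries. Of 21 tested genes of granules and death ligands, 16 were called higher and 1 lower by library-size scaling (median 2.00), and per core transcript 8 were higher and 8 lower (median 0.12). These counts and medians include Gzmd and Gzme. Over all genes 16.3% were higher and 17.0% lower by library-size scaling, and 0.961% higher and 80.2% lower per core transcript. Prf1, encoding the pore-forming protein perforin on chromosome 10 from 61133612 to 61140459, was at 19.6, 13.4 and 17.7 CPM in PD-1- and at 275.1, 315.5 and 264.0 CPM in PD-1+ libraries. It rose by 4.07 (SE 0.20, adjusted p = 4.31e-07) by library-size scaling and by 2.17 (SE 0.21, adjusted p = 6.28e-06) per core transcript on the log2 scale. Gzmb, encoding the protease granzyme B, was at 141.4, 177.1 and 161.1 CPM against 1199, 1549.9 and 1075 CPM, with 1.08 per core transcript (SE 0.14, adjusted p = 3.49e-05). Neither gene overlapped between groups on either scale.

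The other granule genes split. Per core transcript Fasl, encoding the ligand of the death receptor FAS, was higher by 1.27, Gzmk by 1.37, Nkg7, encoding a granule membrane protein that serves degranulation, by 0.92 and Cst7, encoding a cathepsin inhibitor, by 0.90. Gzmd had 0 reads in every PD-1- library and 41, 177 and 65 in the PD-1+ libraries, and Gzme 0 and 42, 154 and 65, so that they were at least 24.3-fold and at least 22.4-fold higher per core transcript. Both passed the count filter only through the PD-1+ libraries. The sequences of Gzmd and Gzme are close to each other and to that of Gzmf, and reads may be shared between them. Gzma was at 17.7, 37.4 and 26.7 CPM in PD-1- and at 38.8, 41.4 and 31.3 CPM in PD-1+ libraries, overlapping, and was not called by library-size scaling (0.45, adjusted p = 0.242) but lower per core transcript (-1.45). Lamp1, encoding a lysosome membrane protein that most cells make, was the member lower on both scales (-0.98 and -2.90).

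Ifng and Tnf, the main inflammatory cytokines of CD8 T cells, went in opposite directions. Ifng, encoding interferon-gamma on chromosome 10 from 118276951 to 118281797, was at 55.7, 60.0 and 31.5 CPM in PD-1- and at 518.1, 918.9 and 419.7 CPM in PD-1+ libraries. It was 12.6-fold higher by library-size scaling (log2 3.65, SE 0.32, adjusted p = 5.54e-06) and 1.71 higher per core transcript on the log2 scale (SE 0.26, adjusted p = 1.09e-04). Tnf was at 183.7, 255.3 and 156.5 CPM in PD-1- and at 59.1, 89.8 and 63.9 CPM in PD-1+ libraries, lower on both scales at -1.49 (SE 0.22, adjusted p = 2.76e-04) and -3.40. Neither overlapped between groups. Dendritic cells and macrophages also make Tnf, and their markers were higher in the same PD-1- libraries; their part in the Tnf level was not tested.

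Of 17 tested cytokines of T cells 12 were called higher and 1 lower by library-size scaling (median 1.49), and per core transcript 2 were higher, Ifng and Tnfsf11, encoding RANKL, and 6 lower. Over all genes 16.3% were higher and 17.0% lower by library-size scaling, and 0.961% higher and 80.2% lower per core transcript. The call of Tnfsf11 per core transcript (0.99, adjusted p = 0.0208) ended without PD-1- replicate 1 (0.0579) or 3 (0.0517) or PD-1+ replicate 1 (0.0970). Il2, the growth factor of T cells, was low and overlapped, at 4.37, 8.88 and 1.39 CPM in PD-1- against 6.74, 12.7 and 3.56 CPM in PD-1+ libraries. Csf2, encoding GM-CSF, was higher by library-size scaling, at 0.728, 2.54 and 0 CPM against 13.3, 26.0 and 11.4 CPM (log2 3.90), and missed the threshold per core transcript (2.00, adjusted p = 0.0695).

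Chemokines and chemokine receptors showed a few large differences. Xcl1, whose product draws XCR1-positive dendritic cells, was at 59.5, 55.8 and 80.5 CPM in PD-1- and at 534.6, 960.0 and 440.5 CPM in PD-1+ libraries, 1.35 higher per core transcript (SE 0.23, adjusted p = 2.86e-04). Ccl1, encoding a ligand of CCR8, was at 0, 2.84 and 1.49 CPM against 49.7, 136.4 and 36.4 CPM. Ccr8 itself, a receptor of activated and regulatory T cells, was at 4.15, 5.52 and 4.56 CPM against 62.2, 58.8 and 62.9 CPM, 1.81 higher per core transcript (SE 0.29, adjusted p = 1.72e-04). None of the 3 genes overlapped between groups. The library-size call of Ccl1 (log2 5.68, adjusted p = 9.54e-04) ended without PD-1+ replicate 1 (adjusted p = 0.0501).

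Of 9 chemokines 4 were called higher and 3 lower by library-size scaling, where 16.3% of all tested genes were called higher and 17.0% lower. The 3 lower were Cxcl9, Cxcl10 and Cxcl16, which myeloid cells make, and the Cxcl10 call ended without PD-1- replicate 1 (adjusted p = 0.170) or 3 (0.0655) or PD-1+ replicate 1 (0.106) or 3 (0.0862). Of 16 chemokine and egress receptors 5 were higher and 2 lower, Cxcr4 and Ccr9. Ccr9, also a marker of plasmacytoid dendritic cells, had a mean of 567.4 CPM in PD-1- and 10.9 CPM in PD-1+ libraries. Cxcr6, encoding the receptor for CXCL16 found on resident effector cells, was at 52.6, 50.8 and 29.6 CPM against 326.9, 395.7 and 278.9 CPM and was higher per core transcript by 1.00 (SE 0.22, adjusted p = 0.00129).

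Costimulatory receptors were mostly higher by library-size scaling. Tnfrsf9, encoding 4-1BB, which activated T cells put on their surface, was at 47.2, 33.0 and 40.2 CPM in PD-1- and at 372.3, 522.3 and 403.9 CPM in PD-1+ libraries, without overlap and 1.51 higher per core transcript (SE 0.19, adjusted p = 3.65e-05). Of 14 tested 9 were called higher and 2 lower by library-size scaling (median 1.46), and per core transcript 2 were higher, Tnfrsf9 and Tnfrsf4, and 6 lower. All genes gave 16.3% higher and 17.0% lower by library-size scaling, and 0.961% higher and 80.2% lower per core transcript. Cd27 and Cd28 differed from the core by less than their errors, with -0.01 (SE 0.19) and -0.04 (SE 0.21) per core transcript. Cd69 and Cd7 were lower on both scales, with means of 438.9 and 148.8 CPM in PD-1- against 179.9 and 35.8 CPM in PD-1+ libraries. Of 12 lectin receptors of the natural killer type, 5 were higher and 3 lower by library-size scaling, and Klrc1, encoding the inhibitory receptor NKG2A, was the one higher per core transcript. Klrc1 was at 44.9, 58.5 and 43.8 CPM against 508.2, 785.8 and 499.8 CPM, without overlap, and 1.68 higher per core transcript (SE 0.18, adjusted p = 9.07e-06).

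Signalling genes next to the T cell receptor gave 17 of 26 higher and 1 lower by library-size scaling, with a median of 1.29, and 3 higher and 15 lower per core transcript with a median of -0.61. Of all tested genes 16.3% were called higher by library-size scaling, and 0.961% higher and 80.2% lower per core transcript. The 3 higher per core transcript were the kinase gene Zap70 (0.74) and the adaptor genes Sh2d2a (0.98) and Sh2d1a (0.85), which encode TSAd and SAP. Among 20 interleukin receptor chains, Il2ra, Il18r1 and Il18rap were higher on both scales, with 0.67, 0.66 and 0.64 per core transcript. The Il2ra call ended without PD-1+ replicate 1 (adjusted p = 0.0647) or 3 (0.0785). Il7r, Il4ra, Il6ra, Il10rb and Ifnar2 were lower on both. Among 19 feedback regulators of MAPK and G protein signals 4 were higher on both, Rgs16, Dusp14, Dusp4 and Spry1, with 2.00, 1.96, 0.96 and 0.84 per core transcript. Rgs16, a brake on G protein signals, had a mean of 63.7 CPM in PD-1- and 949.3 CPM in PD-1+ libraries. The Dusp14 call ended without PD-1- replicate 1 (adjusted p = 0.0947) or PD-1+ replicate 1 (0.0538) or 2 (0.0521).

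Whether a gene passed per core transcript depended in part on which transcripts made the core. Of the 68 genes with reads in PD-1- libraries, 44 kept the call with each library left out in turn, 32 kept it in every alternative fit that tested them other than a test against a 2-fold change and a stricter count filter, and 10 lost it only with the CD3 and zeta chains alone as the core. That core moved the median of all genes to -2.19, and the adjusted p then missed the threshold for Tigit (0.0672), Ctla4 (0.152), Zap70 (0.0787), Dusp4 (0.0727), Spry1 (0.0632), Sh2d1a (0.0635), Tnfrsf4 (0.0774), Il18r1 (0.167), Il18rap (0.215), Tbx21 (0.285), Dusp14 (0.0720), Tnfsf11 (0.120) and Il2ra (0.194). Each kept its positive sign. The genes that kept the call included Tox, Prf1, Gzmb, Gzmk, Fasl, Nkg7, Cst7, Ifng, Xcl1, Ccr8, Cxcr6, Klrc1, Tnfrsf9, Rgs16, Sh2d2a and Crtam, a receptor of activated cytotoxic cells. Pdcd1, on whose product cells were sorted, kept it too.

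Promoters of the genes higher on both scales were read for motifs of factors that antigen receptor signals activate. Shown are the 250 bases upstream of the start site of 4 such genes from RefSeq (GRCm38.p6), in transcript direction, with the motifs in capitals, because their letters hold a motif that was searched for. Other genes higher on both scales, among them Prf1, Ifng, Fasl, Nkg7 and Tigit, held none of the motifs in these bases. Gzmb (chr14:56262335-56262584, minus strand) holds an AP-1 motif, and Klrc1 (chr6:129678974-129679223, minus strand), Ctla4 (chr1:60908775-60909024, plus strand) and Tnfrsf9 (chr4:150919905-150920154, plus strand, upstream of the first of its start sites) an NFAT core motif, on either strand.
Gzmb: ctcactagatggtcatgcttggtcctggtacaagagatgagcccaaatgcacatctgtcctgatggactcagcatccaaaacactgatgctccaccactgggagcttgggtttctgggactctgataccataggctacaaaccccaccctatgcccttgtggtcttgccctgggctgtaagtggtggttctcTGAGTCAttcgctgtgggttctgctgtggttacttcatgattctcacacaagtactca
Klrc1: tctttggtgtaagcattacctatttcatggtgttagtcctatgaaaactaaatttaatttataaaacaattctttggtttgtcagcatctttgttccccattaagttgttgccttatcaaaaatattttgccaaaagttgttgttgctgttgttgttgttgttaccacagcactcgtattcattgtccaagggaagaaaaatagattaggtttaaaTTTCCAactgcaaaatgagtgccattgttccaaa
Ctla4: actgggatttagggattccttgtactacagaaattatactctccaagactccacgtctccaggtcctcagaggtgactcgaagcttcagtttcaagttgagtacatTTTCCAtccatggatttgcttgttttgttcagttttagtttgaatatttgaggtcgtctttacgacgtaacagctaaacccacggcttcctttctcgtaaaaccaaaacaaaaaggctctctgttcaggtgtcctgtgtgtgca
Tnfrsf9: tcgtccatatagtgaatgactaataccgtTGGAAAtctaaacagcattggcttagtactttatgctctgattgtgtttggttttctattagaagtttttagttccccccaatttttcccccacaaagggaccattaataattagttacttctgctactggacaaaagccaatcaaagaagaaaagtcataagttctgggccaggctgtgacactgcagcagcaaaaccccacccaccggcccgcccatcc
Searched on both strands were TGANTCA for AP-1, TGGAAA for the NFAT core and AAAGGTCA for NR4A, and no motif is contained in another. The NFAT core was in 22.7% of the 119 promoters of the 95 genes matched among the 140, in 16.4% of the promoters of genes lower on both scales, in 15.3% of those of all tested genes and in 18.6% of all 32851 promoters. For AP-1 the shares were 5.04%, 5.95%, 4.58% and 6.75%, and for NR4A 3.36%, 1.08%, 1.06% and 1.34%, the first of these being 4 promoters. These shares count promoters, not genes, so a gene with several start sites counts more than once. For Il18r1 the same NFAT core letters lie in 2 overlapping windows, at -73 and -142. The 140 include the 72 genes that passed the count filter only through the PD-1+ libraries. Whether the shares differ between gene sets was not tested. A match describes letters, not binding.

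Cell division genes were higher on one scale and not on the other. Of 30 S phase genes 29 were called higher and 0 lower by library-size scaling (median log2 1.72), and per core transcript 0 were higher and 8 lower (median -0.18). Of 30 genes of G2 and mitosis 29 were higher and 0 lower by library-size scaling, with a median of 1.72, and 0 higher and 6 lower per core transcript (median -0.18). Among all tested genes 16.3% were called higher by library-size scaling and 80.2% lower per core transcript. Mki67, encoding the proliferation marker Ki-67, was at 111.8, 101.8 and 124.2 CPM in PD-1- and at 479.0, 308.8 and 470.0 CPM in PD-1+ libraries. It was 3.73-fold higher by library-size scaling (adjusted p = 1.62e-05), while its reads per 1000 core reads were 66.3, 58.0 and 76.4 against 79.6, 41.2 and 84.8, which overlapped (log2 0.03, SE 0.25, adjusted p = 0.900). A value that was not called does not show that the groups were equal. E2f1 and Anln were the genes of these lists not called by library-size scaling.

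Several genes of naive and circulating T cells were lower in PD-1+ cells. Il7r, encoding the interleukin-7 receptor of resting T cells, was at 194.7, 259.7 and 240.3 CPM in PD-1- and at 39.8, 37.4 and 68.6 CPM in PD-1+ libraries (-2.25, SE 0.24, adjusted p = 2.03e-05). Klf2, a quiescence factor that maintains S1pr1, was at 460.5, 666.8 and 433.1 CPM against 108.2, 155.8 and 121.8 CPM (-2.02, SE 0.21, adjusted p = 1.86e-05). Neither overlapped between groups. Of 16 homing and quiescence genes 9 were called lower and 5 higher by library-size scaling, and the 9 held Il7r, S1pr1 (-1.17), encoding the receptor for exit from tissue, Pik3ip1 (-2.41), Txnip (-1.06), Igfbp4, Itgb7, Nsg2 and Ly6c2, with the Ly6c2 call ending without PD-1- replicate 2 (adjusted p = 0.0595). Plasmacytoid dendritic or other myeloid cells also transcribe Klf2, Ly6c2 and Itgb7, and their part was not tested. The 5 higher were Ccr7, Dapl1, Slamf6, Cd27 and Cd28. Among all tested genes 17.0% were called lower and 16.3% higher on that scale.

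Factors of naive and stem-like cells did not move as one. Of 15 tested 5 were called higher and 5 lower by library-size scaling (median -0.10), and per core transcript 0 were higher and 13 lower (median -1.99, near the -1.87 of all genes). For all genes the shares were 16.3% higher and 17.0% lower by library-size scaling, and 80.2% lower per core transcript. Tcf7, encoding TCF-1, was at 174.5, 163.9 and 174.9 CPM in PD-1- and at 204.9, 171.0 and 207.7 CPM in PD-1+ libraries. These overlapped, and the difference was not called by library-size scaling (0.19, SE 0.15, adjusted p = 0.381), while per core transcript Tcf7 was lower at -1.69 (SE 0.20, adjusted p = 2.42e-05). The 5 lower on both scales were Klf2, Klf3 (-1.67), Satb1 (-1.05), Sox4 (-1.35) and Id3 (-0.93), with the Id3 call ending without PD-1- replicate 1 (adjusted p = 0.0526) or 2 (0.0663) or PD-1+ replicate 1 (0.0721). Bach2, Bcl11b, Ets1, Foxo1 and Myb were the 5 higher, at 0.76 to 1.42. The call of Foxo1 ended without PD-1- replicate 1 (0.0614) or 2 (0.0557) or PD-1+ replicate 3 (0.0653), and that of Myb without PD-1- replicate 1 (0.0655) or PD-1+ replicate 1 (0.0702) or 3 (0.0556). Slamf6, a surface protein of progenitor exhausted cells, was higher at 1.44 and stood at -0.43 per core transcript, not called. Dapl1, a gene of naive and central memory cells, was at 7.93, 9.41 and 6.74 CPM against 45.1, 50.1 and 40.4 CPM, higher by 2.49 and at 0.59 per core transcript (adjusted p = 0.0626).

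Most AP-1 genes that were called were lower in PD-1+ cells. Of 13 tested 7 were called lower and 3 higher by library-size scaling (median -0.95), where 17.0% of all tested genes were called lower and 16.3% higher. Fos, Fosb and Jun, immediate early genes whose transcripts appear within minutes of stimulation or tissue handling, had means of 1323, 867.7 and 1227 CPM in PD-1- and 349.2, 264.7 and 355.8 CPM in PD-1+ libraries, at -1.92, -1.71 and -1.79 on the log2 scale. Fosl2, Batf and Junb were the 3 higher, and the Junb call (0.58) ended without PD-1- replicate 2 (adjusted p = 0.0550) or 3 (0.0812). Nr4a2, encoding a nuclear receptor induced by antigen receptor signals, was at 110.3, 101.2 and 139.5 CPM in PD-1- and at 588.8, 453.1 and 767.9 CPM in PD-1+ libraries (2.37, SE 0.22, adjusted p = 7.23e-06), and at 0.51 per core transcript (adjusted p = 0.107). Nr4a1 was at 885.2, 1105 and 1062 CPM against 937.6, 939.4 and 925.2 CPM and not called, and Nr4a3 was higher at 1.17, both by library-size scaling. Egr1 and Egr3 were lower at -0.59 and -1.38, and the Egr1 call ended without PD-1- replicate 2 (0.0520) or 3 (0.0751) or PD-1+ replicate 1 (0.0825).

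Interferon response genes were mostly lower in PD-1+ libraries. Of 30 type I interferon response genes 20 were called lower and 1 higher by library-size scaling (median -1.03), where 17.0% of all tested genes were called lower. All 30 were lower per core transcript, where 80.2% of all genes were. Irf7, encoding the factor that amplifies interferon production, was at 495.4 CPM (SD 93.3, n = 3) in PD-1- and at 165.3 CPM (SD 18.6, n = 3) in PD-1+ libraries, and Rsad2, encoding the antiviral protein viperin, was at a mean of 157.5 against 47.4 CPM. Ifi27l2a was the one higher (0.78), a call that ended without PD-1- replicate 3 (adjusted p = 0.0578). Bst2 of this list is also a plasmacytoid dendritic cell marker, and the markers of that cell moved with it; their part was not tested. Of 18 genes induced by interferon-gamma 11 were lower and 0 higher by library-size scaling (median -0.60), with Iigp1 and Tgtp1, interferon-inducible GTPases, at -1.84 and -2.18. Ciita, the master factor of MHC class II, was at -2.47. It is also on the list of MHC class II and shared dendritic cell genes, which were mostly lower in the same libraries, and the part of those cells was not tested.

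**Figure D5:**
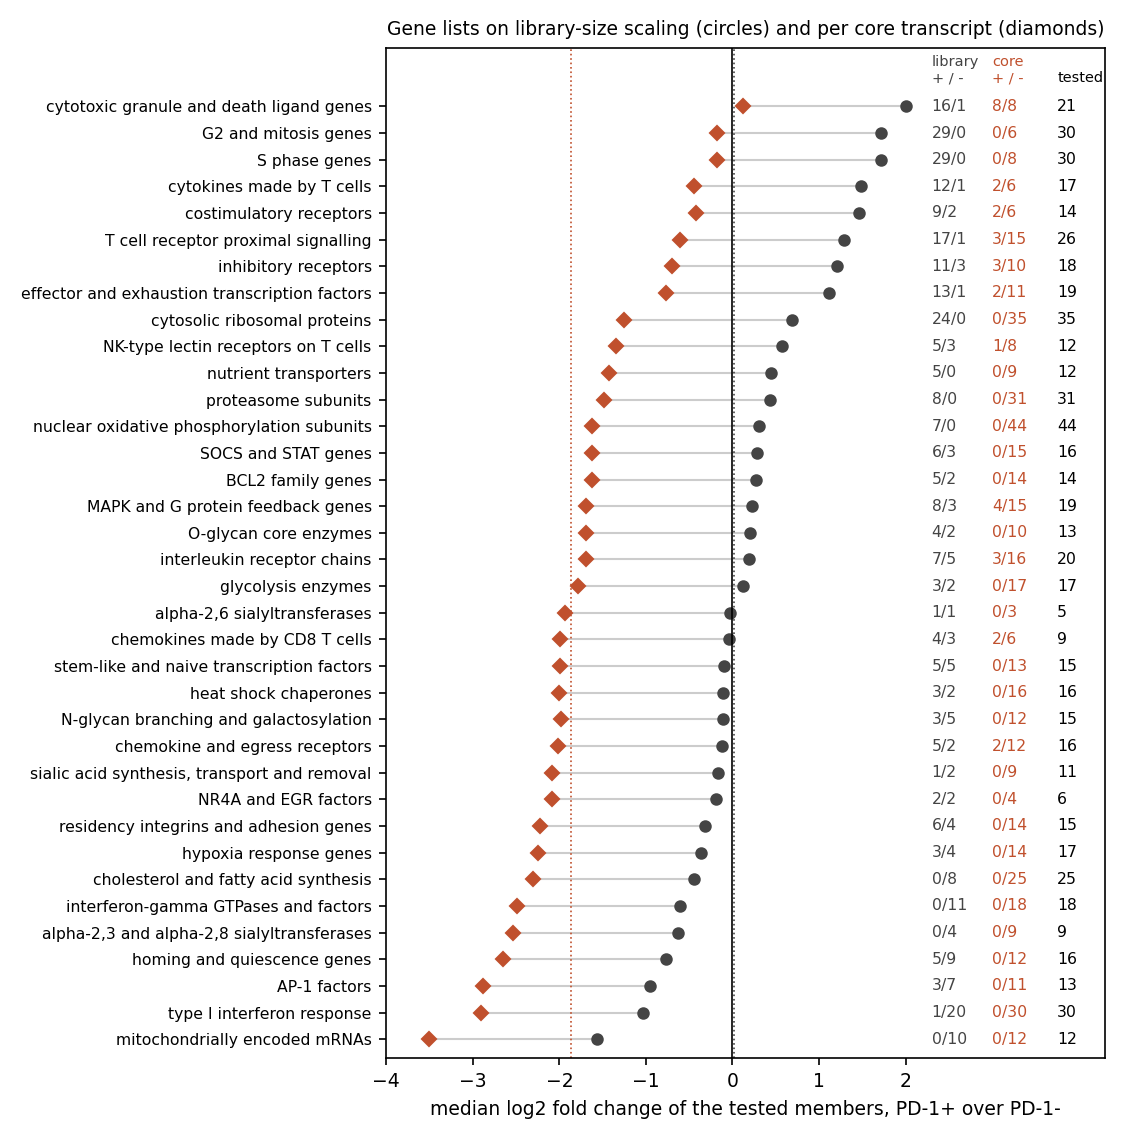
Median log2 fold change of the tested members of each list other than the cell type markers and the core, on library-size scaling (circles) and per core transcript (diamonds), with the counts called higher (+) and lower (-) on each scale and the number tested; dotted lines mark the medians of all tested genes, 0.02 and -1.87. Among the lists drawn, cytotoxic and cell division genes lie farthest to the right on both scales and mitochondrially encoded mRNAs farthest to the left.

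Metabolic and housekeeping genes are read against the 80.2% of all genes called lower per core transcript (median -1.87). By library-size scaling 16.3% of all genes were called higher and 17.0% lower. All 35 tested cytosolic ribosomal protein genes were lower per core transcript (median -1.25, less negative than that of all genes), although 24 were called higher and 0 lower by library-size scaling (median 0.68). Of 12 mitochondrially encoded mRNAs 10 were lower and 0 higher by library-size scaling (median -1.57), and mt-Co1, a subunit of cytochrome oxidase, had a log2 fold change of -1.49. Of 44 nuclear subunits of oxidative phosphorylation 7 were higher, near the share of all genes, and 0 lower by library-size scaling. Of 17 glycolysis enzymes 3 were higher by library-size scaling (Hk1, Ldha and Pkm) and 2 lower (Aldoc and Pfkfb4). The Pkm call ended without PD-1- replicate 2 (adjusted p = 0.0879) or 3 (0.0698) or PD-1+ replicate 1 (0.0916), and that of Pfkfb4 without PD-1- replicate 2 (0.0923) or PD-1+ replicate 1 (0.113). Of 31 proteasome subunits 8 were higher and 0 lower, of 25 cholesterol and fatty acid synthesis genes 8 were lower and 0 higher, and of 16 heat shock chaperones 3 were higher and 2 lower. The glycolysis and heat shock counts were near the shares of all genes.

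Glycan genes are given by library-size scaling where no scale is named, and on it 16.3% of all tested genes were called higher and 17.0% lower. Of 5 tested α2,6 sialyltransferases St6gal1 was lower, as given above, St6galnac4 was higher (0.60, but lower at -1.30 per core transcript) and 3 were not called. The St6galnac4 call ended without PD-1- replicate 1 (adjusted p = 0.103) or 3 (0.0858) or PD-1+ replicate 1 (0.178) or 2 (0.0779). Of 9 α2,3 and α2,8 sialyltransferases 4 were lower and 0 higher. St8sia4, which builds polysialic acid, was at 375.0 CPM (SD 76.1, n = 3) in PD-1- and 110.1 CPM (SD 8.72, n = 3) in PD-1+ libraries, and St3gal5, which makes the ganglioside GM3, had means of 49.9 and 8.53 CPM. Cmah, which converts one sialic acid form to another, and Gne, which starts sialic acid synthesis, were lower at -1.65 and -1.43, and Nans, a later enzyme of that synthesis, was higher at 0.95 by library-size scaling but lower at -0.96 per core transcript (adjusted p = 6.47e-04). Per core transcript St6gal1 was at -2.51, St8sia4 at -3.64, St3gal5 at -4.49, Cmah at -3.49 and Gne at -3.31. All of these were called lower, as were 80.2% of all genes (median -1.87). Of 15 N-glycan branching genes 3 were higher and 5 lower by library-size scaling, and of 13 O-glycan genes 4 were higher and 2 lower. Galnt3, which starts O-glycans, was at 9.10, 6.94 and 0 CPM against 81.7, 61.1 and 63.2 CPM. It was higher by library-size scaling and not called per core transcript (1.80, adjusted p = 0.0561). The library-size call ended without PD-1+ replicate 1 (adjusted p = 0.171), 2 (0.0903) or 3 (0.113).

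The largest differences on both scales included genes outside these lists. Of the 15 genes with the largest values per core transcript at 5 CPM or more, Crabp2, Exph5 and Tmprss6 had 0 reads in every PD-1- library. They passed the count filter only through the PD-1+ libraries, and their place among the 15 rests on fitted values that depend on the prior count. Crabp2, encoding a retinoic acid carrier on chromosome 3 from 87855973 to 87860683, had 214, 410 and 120 reads in PD-1+ replicates 1, 2 and 3, at least 63.8-fold higher per core transcript. Exph5 and Tmprss6 were at least 43.6-fold and at least 39-fold higher. Rgs8, a brake on G protein signals, was at 0.364, 0 and 1.39 CPM against 35.3, 30.3 and 33.1 CPM. Nrn1, encoding the surface protein neuritin, was at 1.89, 2.99 and 0.694 CPM against 85.0, 78.3 and 59.2 CPM and Klrh1 at 2.26, 0 and 0.595 CPM against 42.4, 67.0 and 52.9 CPM, and none of the 3 overlapped between groups. The others were Atcay, Ccl1, Nrgn, Penk (proenkephalin), Gldc, Slc9b2, Smyd1, Tnfsf4, encoding the ligand of OX40, and Zbtb32, a repressor induced in activated lymphocytes.

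Zbtb32 was at 4.22, 6.49 and 4.16 CPM in PD-1- and at 92.2, 110.3 and 70.6 CPM in PD-1+ libraries, without overlap, with 2.28 per core transcript (SE 0.27, adjusted p = 2.14e-05). Smyd1 had 2.40 (SE 0.38, adjusted p = 1.50e-04) and Tnfsf4 2.55 (SE 0.66, adjusted p = 0.00429). Some calls per core transcript were marginal. They ended for Penk without PD-1- replicate 2 (adjusted p = 0.0559) or 3 (0.0636) or PD-1+ replicate 1 (0.0655) or 2 (0.0885), for Gldc without any library other than PD-1- replicate 1 (0.0652 to 0.0912) and for Slc9b2 without PD-1+ replicate 2 (0.0512). The library-size call of Nrgn ended without PD-1+ replicate 1 (0.0648). Genes higher by library-size scaling that did not pass per core transcript were led by Fam81a, Rasgef1a, Gas2, Csf2, Gzmf, Serpinb9b, Slc17a6 and Galnt3, at 3.65 to 4.19. The calls of Gzmf without PD-1+ replicate 2 (0.0504) and of Slc17a6 without PD-1+ replicate 1 (0.0937) or 3 (0.0626) ended too, as did that of Galnt3 without any PD-1+ library (0.0903 to 0.171).

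The genes with the most negative values included markers of dendritic cells. Of the 15 lowest on both scales at 5 CPM or more, Siglech, Klk1 and Cd300c are on the plasmacytoid dendritic cell list. Klk1 was at 347.1, 575.0 and 346.4 CPM in PD-1- and at 5.62, 10.1 and 3.79 CPM in PD-1+ libraries. Dntt, encoding the enzyme that adds bases at receptor junctions in developing lymphocytes, was at 60.1, 93.5 and 78.8 CPM against 0.375, 2.26 and 1.00 CPM. Or2m12, an olfactory receptor gene, had 105, 174 and 166 reads in PD-1- libraries and 0 in every PD-1+ library, at least 154-fold lower by library-size scaling. It passed the count filter only through the PD-1- libraries. None of the 3 genes overlapped between groups. Among the others were Fyb2, Duxbl1, D13Ertd608e, Hs3st1, Xkrx, Pir, Cacna1e, Havcr1 and Paqr5, at log2 -6.72 to -5.80.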

How the data were processed

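RNA of sorted CD8+ T cells was sequenced after poly-T bead selection as paired 150-base reads; no molecular identifiers are described. The authors deposited raw counts per gene, made with Trim Galore 0.6.5, STAR 2.7.6a and featureCounts 1.6.3, per the submitters' processing notes. Those notes name GRCm38, but gene positions are given as the deposited file has them, since only 2.74% of 49102 genes named in both had the same start and end in the GRCm38 annotation. The sources used here do not say whether counting used strand, and reads of overlapping genes on opposite strands cannot be told apart.

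The 6 libraries were fitted in R 4.3.3 with edgeR 4.0.16 (filterByExpr, TMM factors, robust quasi-likelihood F test, 4 residual degrees of freedom). Groups came from the sample labels. Calls needed p under 0.05 after Benjamini-Hochberg adjustment across the whole tested table, and every adjusted p in the text is from this test. A second fit set library sizes proportional to the summed counts of the 10 T cell core transcripts, which were not counted as calls in it. Standard errors are the log2 fold change divided by the square root of F. The scripts were tested on simulated counts. Alternatives used limma 3.58.1 and DESeq2 1.42.0, other filters, scalings and cores, all 9 libraries, a replicate block and each library left out.

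The comparison, its genes and the gene lists were chosen with earlier results of these data known, so counts over a list are descriptions. Named genes were the 15 largest in each direction on both scales and the 8 largest on library-size scaling alone, at 5 CPM or more, without overlap and leaving out gene models and receptor segments, together with Pdcd1, St6gal1, Cd8a, Cd8b1, Cd3e and Cd4, for every list its members of lowest adjusted p on each scale (3 at most), and for marker lists also the member of highest level; other genes named were chosen after their values were seen. Some genes of the rule are not reported here. Replicate pairs differed by more than the sampling noise of independent reads, and each library was counted as its own sample. That check cannot tell technical from biological replicates, because without molecular identifiers reads need not be independent. The depth of 9714020 to 13841619 reads per library limits genes of few reads, and intervals and floors cover counting error only.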

Additional observations from a re-analysis of the deposited data

How the results depend on the processing

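The 140 genes higher per core transcript became 82 on both scales with a filter of 5 CPM in 3 libraries (72 of the 140 were still tested and all 72 called), 281 with all 9 libraries in the fit, 88 in a test against a 2-fold change, and 68 on both scales with genes at 0 in every PD-1- library left out, an alternative added after the data were seen. The test against a 2-fold change left 454 higher and 1000 lower by library-size scaling, and 1000 lower on both scales. With each library left out in turn, 1629 to 2330 genes were higher and 1793 to 2278 lower by library-size scaling, 67 to 184 higher and 10942 to 11820 lower per core transcript, 65 to 184 higher on both scales and 1793 to 2278 lower on both. Of the 140, 63, 79 and 71 were called again without PD-1+ replicate 1, 2 and 3, and 123, 122 and 126 without PD-1- replicate 1, 2 and 3. DESeq2 called 139 genes higher on both scales and limma-voom 122, of which 129 and 96 were among the 140. Deviations from the group mean correlated between groups at -0.0134, 0.0255 and 0.0776 for equal replicate numbers and at -0.0926 to 0.0705 for unequal ones. With 3 libraries per group such values cannot show whether samples of equal number shared a tumour or a batch. With the replicate numbers as a block 2511 genes were higher and 2404 lower by library-size scaling. In that fit 100 were higher and 11255 lower per core transcript, and 98 higher on both scales. No named gene reversed under these alternatives. The cause of these moves was not tested, apart from the fewer genes or samples an alternative holds by construction.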

Other observations

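Adhesion genes, among them those of tissue-resident T cells, split by library-size scaling, with 6 of 15 called higher and 4 lower in PD-1+ cells. Of all tested genes 16.3% were called higher and 17.0% lower on that scale. Cdh1, encoding E-cadherin, had a mean of 95.5 CPM in PD-1- and 4.97 CPM in PD-1+ libraries, and Itgae, encoding the integrin chain CD103 that binds it, of 129.9 and 23.4 CPM. Both fell (log2 -4.26 and -2.47, edgeR adjusted p = 8.38e-07 and 2.65e-06). Itgae is also on the list of type 1 conventional dendritic cells, whose markers were higher in the same PD-1- libraries, and their part was not tested. Cd44, encoding an adhesion receptor of antigen-experienced T cells and of many other cells, was lower as well (-1.18, adjusted p = 3.14e-04).

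Over all tested genes 16.3% were called higher and 17.0% lower by library-size scaling and 80.2% lower per core transcript, and the counts of the next lists are given beside these shares as descriptions. Of 12 nutrient transporters 5 were higher and 0 lower by library-size scaling, and per core transcript 0 were higher and 9 lower. Slc7a1, a carrier of cationic amino acids, and Slc16a1, a lactate carrier, were higher by 1.64 and 1.62, and stood at -0.20 and -0.28 per core transcript, not called. Hypoxia response genes had 3 higher and 4 lower of 17, with Ddit4, an inhibitor of mTOR signals, higher at 2.10 and Vegfa, the vascular growth factor, lower at -1.14. SOCS, STAT and JAK family genes had 6 higher and 3 lower of 16, with the cytokine feedback gene Cish higher at 1.80 and at -0.12 per core transcript. Of 14 BCL2 family genes 5 were higher and 2 lower, and all 14 were lower per core transcript.

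The most read T cell receptor beta variable segment took 10.6%, 9.97% and 12.7% of beta variable reads in PD-1- replicates 1, 2 and 3 (95% exact binomial intervals 9.32% to 12%, 8.69% to 11.4% and 10.9% to 14.6%, of 2113, 1985 and 1286 reads). In PD-1+ replicates 1, 2 and 3 it took 12.8%, 12.9% and 15.6% (12% to 13.5%, 12.2% to 13.6% and 14.7% to 16.5%, of 7566, 8118 and 6418 reads). The segment was Trbv12-2 in the 3 PD-1- libraries, Trbv12-1 in PD-1+ replicates 1 and 3 and Trbv14 in PD-1+ replicate 2. Reads of near-identical segments may be shared between them.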
